A study of Mus musculus with 81 samples.

Results

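The mitosis genes described here are 53 genes of 24391 gene symbols in the count table, chosen by name from a list of spindle, kinetochore, mitotic kinase and cytokinesis genes. The choice was made with earlier results of these data known. All 53 were found in the table, and all 53 passed the filter on low counts in each of the 5 RNA experiments. They comprised 8 mitotic kinases, 3 cyclins, 5 genes of the checkpoint, the APC/C and cohesion release, 9 centromere and kinetochore genes, 3 chromosomal passenger subunits, 11 kinesins, 8 spindle assembly genes, 4 cytokinesis genes and 2 genes of chromosome structure. RNA came from a mouse hybridoma T cell line of mature T cell type, in which RBPJ, the DNA-binding factor of the Notch pathway, was removed or its partners were supplied.

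The groups were as follows. Lines 2-12 and 2-14, depleted of RBPJ by CRISPR/Cas9, were compared with a control line, with 2 libraries each. Cells infected with NICD1-ER, a fusion of the Notch1 intracellular domain that responds to (Z)-4-hydroxytamoxifen (4-OHT), received ethanol for 24 h or 1 µM 4-OHT for 4, 8 or 24 h. Each of these 4 groups had 3 labelled libraries and entered as 2 samples. Replicate 1 of ethanol and replicate 1 of 24 h of 4-OHT were not matched to a column of counts and were left out. Replicates 1 and 2 at 4 h and at 8 h differed by less than sampling noise and were counted as 1 sample; the 2 libraries at 24 h of 4-OHT did so too (chi-square per gene 0.928) and, as the only pair of their group, were kept as 2 samples. KYOT2 is an isoform of FHL1 that binds RBPJ; cells infected with GFP-KYOT2 WT or with GFP-KYOT2 WWAA, a mutant defective in RBPJ binding, were compared with cells infected with GFP, with 3 libraries each. Cells given the gamma-secretase inhibitor DAPT (GSI) at 20 µg/ml for 24 h were compared with DMSO, with 2 libraries each. Finally, RBPJ-depleted cells (sgRbpj) and control cells were infected with BioNICD1, a construct of the Notch1 intracellular domain, or with Biocontrol, with 3 libraries in each of the 4 groups. Whether the depleted cells are single clones or pools is not given in the sources used here. Whether replicates came from separate cultures is not stated, so p-values here measure only the spread between these samples, which may be technical.

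Mitosis genes are transcribed late in the cell cycle, in G2 and at entry into mitosis, and are held low in G1 and in resting cells. Their promoters often carry a CHR (cell cycle genes homology region) and CCAAT boxes, bound by the MuvB complexes and by NF-Y. MuvB acts as a repressor together with p130 and E2F4, and as an activator together with B-MYB (Mybl2) and FOXM1. Notch signalling releases its intracellular domain by gamma-secretase cleavage, and that domain binds RBPJ on DNA; in T lineage cells Notch supports growth. In bulk RNA, fewer cells in mitosis and less mitotic RNA per cell cannot be told apart.

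The promoters of the members shared letters that the choice of genes did not use. RefSeq (GRCm38.p6) promoters, running from 250 bases before to 50 bases after the start, were at hand for 46 of 53 members, in 49 entries. A CHR, spelled TTTGAA or TTCGAA on either strand, stood in 37 of 49 entries (75.5%), against 19.2% of all 32851 promoters. CCAAT on either strand stood in 79.6% of the members' entries, against 37.4% of all promoters. Both together stood in 67.3% of the members' entries, against 7.52% of all promoters. Of 50 CHR matches in the members, 36 lay between 50 bases before and 50 bases after the start. The RBPJ motif TGGGAA, searched on both strands, stood in 30.6% of the members' entries, against 25.6% of all promoters. E2F motifs (TTTGGCGC, TTTCCCGC, TTTCGCGC or TTTGCCGC) stood in 4.08%, against 2.26%. Matches of different motifs can share bases (ATTGG, the reverse complement of CCAAT, can run into TGGGAA), and a match is a description of letters, not a site.

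The 5 members that fell most with GSI among those with both elements are printed first, since the results below turn on several of them, and Pttg1 is printed last because it fell most with BioNICD1 in control cells and held neither element. All are RefSeq sequences of GRCm38.p6, 5′ to 3′ on the gene's strand, and capitals mark CHR and CCAAT matches on either strand (TTCAAA and ATTGG are the reverse complements). Kif14 lies at chr1:136467598-136467897 (+), Cenpf at chr1:189688037-189688336 (-), Espl1 at chr15:102296043-102296342 (+), Cenpn at chr8:116921490-116921789 (+), Aspm at chr1:139454523-139454822 (+) and Pttg1 at chr11:43425932-43426231 (-).
Kif14: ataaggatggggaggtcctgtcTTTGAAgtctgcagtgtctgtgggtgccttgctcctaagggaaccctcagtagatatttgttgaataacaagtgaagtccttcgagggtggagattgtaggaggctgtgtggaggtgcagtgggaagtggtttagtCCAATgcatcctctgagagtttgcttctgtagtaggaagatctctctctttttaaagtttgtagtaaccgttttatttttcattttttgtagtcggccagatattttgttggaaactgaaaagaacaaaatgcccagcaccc
Cenpf: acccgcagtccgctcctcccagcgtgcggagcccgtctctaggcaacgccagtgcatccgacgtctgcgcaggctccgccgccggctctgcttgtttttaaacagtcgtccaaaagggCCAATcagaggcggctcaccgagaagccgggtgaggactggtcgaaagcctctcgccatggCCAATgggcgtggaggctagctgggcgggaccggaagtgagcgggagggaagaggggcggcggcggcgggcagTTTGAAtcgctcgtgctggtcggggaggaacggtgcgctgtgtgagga
Espl1: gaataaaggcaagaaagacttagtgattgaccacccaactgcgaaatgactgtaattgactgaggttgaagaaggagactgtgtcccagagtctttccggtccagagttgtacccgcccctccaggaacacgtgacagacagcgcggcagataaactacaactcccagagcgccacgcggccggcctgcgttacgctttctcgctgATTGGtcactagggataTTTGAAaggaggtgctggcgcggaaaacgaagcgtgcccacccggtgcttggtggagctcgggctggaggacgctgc
Cenpn: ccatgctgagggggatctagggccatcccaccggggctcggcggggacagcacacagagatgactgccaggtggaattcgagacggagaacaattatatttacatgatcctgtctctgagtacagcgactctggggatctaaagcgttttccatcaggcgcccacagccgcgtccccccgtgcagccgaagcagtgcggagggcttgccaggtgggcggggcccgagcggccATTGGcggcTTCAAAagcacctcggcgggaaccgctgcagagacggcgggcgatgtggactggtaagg
Aspm: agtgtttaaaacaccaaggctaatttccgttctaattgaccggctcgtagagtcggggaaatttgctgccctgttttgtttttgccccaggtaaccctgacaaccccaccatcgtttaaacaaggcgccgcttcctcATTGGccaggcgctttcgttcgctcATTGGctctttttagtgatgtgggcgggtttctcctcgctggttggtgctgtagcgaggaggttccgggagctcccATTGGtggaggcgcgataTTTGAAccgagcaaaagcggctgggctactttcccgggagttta
Pttg1: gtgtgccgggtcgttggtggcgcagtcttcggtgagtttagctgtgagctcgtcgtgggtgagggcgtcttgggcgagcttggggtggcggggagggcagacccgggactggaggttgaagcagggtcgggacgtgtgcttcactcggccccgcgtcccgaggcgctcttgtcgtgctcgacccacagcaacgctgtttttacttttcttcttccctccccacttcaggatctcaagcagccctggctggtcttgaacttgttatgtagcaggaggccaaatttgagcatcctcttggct
In Aspm the CHR began 6 bases after the start and in Cenpf 2 bases after it, while in Kif14 the only CHR lay 228 bases before the start.

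Library totals ran from 2377028 to 14244209 counts, and the lowest count of any member in any library was 61. The 14 T cell markers held 11 to 13 genes above 1 CPM (counts scaled to the library total for markers, and TMM-normalised for all other genes given here) in every library, and their sum ran from 922 to 2557 CPM. Fibroblast markers summed to at most 1.26 CPM, and myeloid markers to at most 97.1 CPM, led by Cd68. Of 6 B cell markers, Cd22 alone passed 1 CPM; it is given beside the results it moves with. Rbpj was at 44.2 and 31.4 CPM in line 2-12 and at 59.6 and 41.8 CPM in line 2-14, against 182 and 133 CPM in the control line. In the BioNICD1 experiment it was at 18.7 to 27.4 CPM in sgRbpj cells, against 83.9 to 94.1 CPM in control cells. Levels are not compared between experiments, since the labels name 1 stranded total RNA kit "or others" without saying which libraries used which.

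**Figure D1:**
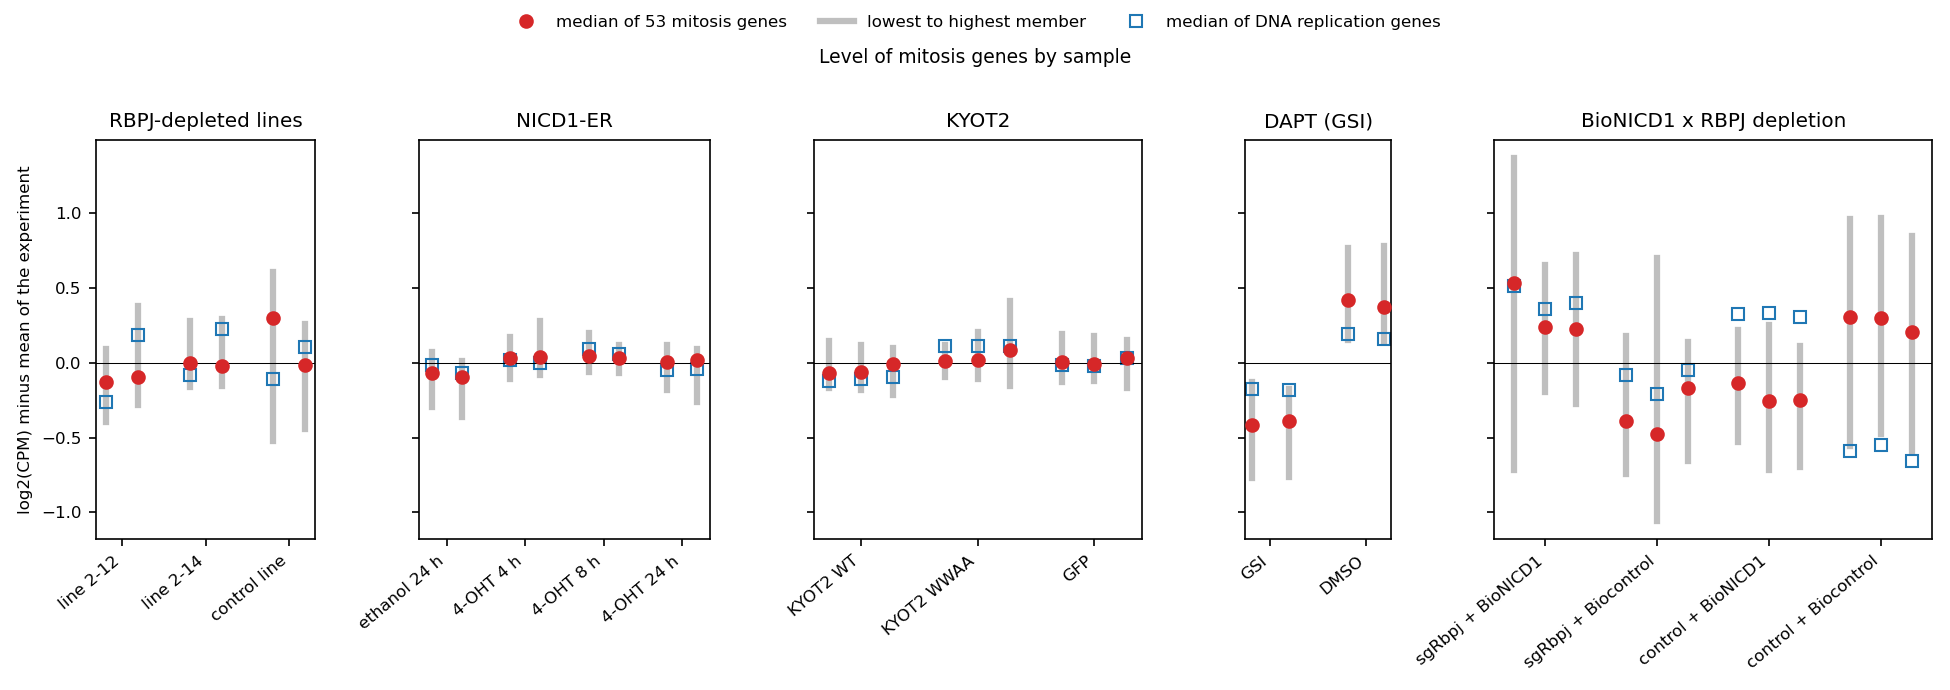
Each red point is the median over 53 mitosis genes of log2(CPM) minus the mean of the experiment in 1 sample. A sample is 1 library, or replicates 1 and 2 summed for NICD1-ER at 4 h and at 8 h. The grey bar runs from the lowest to the highest member, and blue squares are the median of 42 DNA replication genes. Members stand low in both GSI libraries (-0.42 and -0.39, against 0.42 and 0.37 in DMSO), and in the BioNICD1 experiment their order against the replication genes is opposite in the 2 control-cell groups: members stand at -0.13 to -0.25 and replication genes at 0.30 to 0.33 with BioNICD1, and members at 0.21 to 0.31 and replication genes at -0.55 to -0.66 with Biocontrol.

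GSI lowered every mitosis gene. All 53 members fell, from Kif14 at -1.54 to Mki67 at -0.38 on the log2 scale, with a median of -0.81 (1.75-fold lower), beside a median of 0.00 over all 11634 genes tested. Of all genes 20.7% were called, 9.16% as higher and 11.6% as lower. The members summed to 5957 and 5960 CPM with GSI, against 10072 and 9811 CPM with DMSO. For all 53 members both GSI libraries lay below both DMSO libraries, as they did for 29.9% of all genes.

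All 8 mitotic kinases fell, with a median of -0.82. Plk1, which drives mitotic entry and spindle formation, was at 64.0 and 62.9 CPM with GSI, against 136 and 128 CPM with DMSO (log2 fold change -1.05 ± 0.06 SE, edgeR adjusted p = 1.66e-14). Bub1, the checkpoint kinase of the kinetochore, was at 109 and 108 CPM with GSI, against 205 and 204 CPM with DMSO (-0.92 ± 0.05, edgeR adjusted p = 5.04e-15). Both GSI libraries stood well below both DMSO libraries for each. Aurkb, the kinase of the chromosomal passenger complex, was at 81.4 and 80.6 CPM with GSI, against 143 and 135 CPM with DMSO. Cdk1, the kinase that starts mitosis, was at 81.6 and 78.0 CPM with GSI, against 124 and 111 CPM with DMSO. Its partner Ccnb1 was at 60.8 and 57.3 CPM with GSI, against 109 and 113 CPM with DMSO. Ttk, the kinase that sets up the spindle checkpoint, fell by 1.07 and Bub1b, its partner at the kinetochore, by 0.39.

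The largest fall was in a kinesin. Kif14, which acts at the central spindle in cytokinesis, was at 58.9 and 59.2 CPM with GSI, against 172 and 173 CPM with DMSO. That is 2.92-fold lower, -1.54 ± 0.06 SE (edgeR adjusted p = 8.25e-19). All 11 kinesins fell, with a median of -0.85. Kif2c, which removes faulty kinetochore attachments, fell by 1.01. Cenpf, a kinetochore protein of late G2, averaged 177 ± 11.9 CPM with GSI and 421 ± 2.15 CPM with DMSO (SD, n = 2 each), a fall of 1.25. Cenpe, the kinetochore motor, fell by 0.91. Among cohesion release genes, Espl1 (separase) fell by 1.15 and its inhibitor Pttg1 (securin) by 0.41. Of the spindle assembly genes, Aspm, which organises spindle poles, fell by 1.08 and Hmmr, a microtubule-binding protein, by 1.07.

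The 2 members of chromosome structure had the smallest median fall of any role (-0.41). Mki67, the proliferation marker that coats mitotic chromosomes, was at 772 and 786 CPM with GSI, against 1050 and 984 CPM with DMSO. Top2a, which untangles DNA, was at 392 and 383 CPM with GSI, against 536 and 512 CPM with DMSO. Mki67 fell by 0.38 and Top2a by 0.43.

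**Figure D2:**
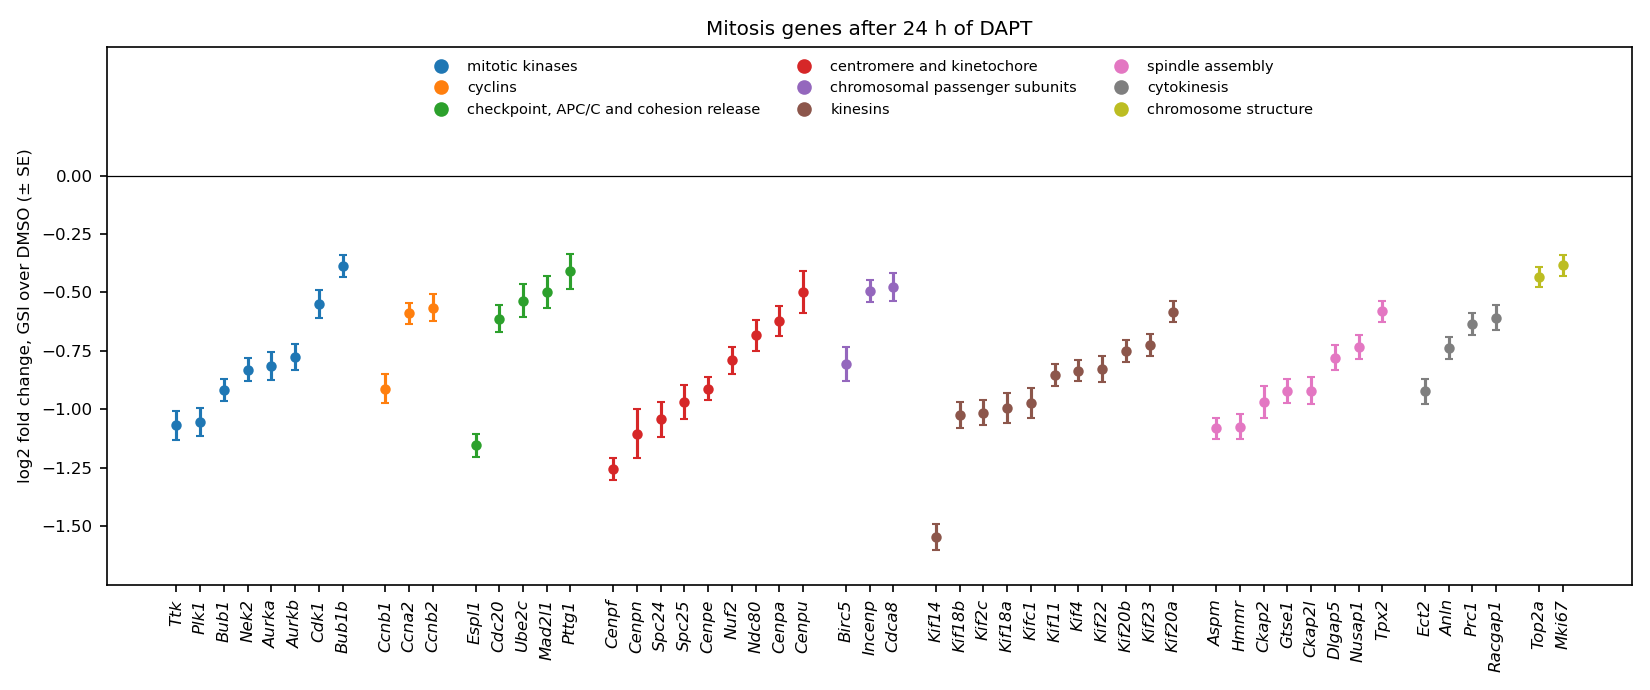
Each point is a member's log2 fold change of GSI over DMSO with its standard error (n = 2 libraries each), coloured and grouped by role. Every point lies below 0, from -1.54 for Kif14 to -0.38 for Mki67.

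The regulators were not all changed. Foxm1 was at 59.6 CPM with GSI and 128 CPM with DMSO on average, -1.10 ± 0.06 (edgeR adjusted p = 5.68e-15). Mybl2 fell by 0.46 and Cdkn1b, a CDK inhibitor, by 0.19 (edgeR adjusted p = 0.00664). E2f1 changed by -0.08 (edgeR adjusted p = 0.506) and the CDK inhibitor Cdkn1a by -0.09 (0.401). Of the outside lists, 63 of 68 other mitosis genes fell, with a median of -0.69. The lowest adjusted p-values among them were those of Iqgap3 (-1.42), Casc5 (-1.12) and Kntc1 (-0.99), the last 2 being kinetochore genes. Of 42 DNA replication genes, 38 fell, with a median of -0.37, and the lowest adjusted p-values were those of the polymerase genes Pole (-0.68), Pola1 (-0.58) and Pold1 (-0.53). Of 15 APC/C subunits 3 fell, Cdc27 (-0.35) with the lowest adjusted p. All 53 members passed without any 1 library, and 51 passed in DESeq2. The 2 GSI libraries differed by less than sampling noise (chi-square per gene 0.766) and, as the only pair of their group, were kept as 2 samples. Myeloid markers summed to 97.1 and 92.8 CPM with GSI, against 67.1 and 62.6 CPM with DMSO, led by Cd68; their part in the result was not tested.

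Of the members that passed in control cells, all but 1 fell with BioNICD1, and of those that passed in sgRbpj cells, all rose. The other members did not pass. A fall in control cells and a rise in sgRbpj cells were both called for 20 of 53 members, against 0.442% of all genes. In control cells BioNICD1 lowered 28 members and raised 1, with 32.9% of all genes called (14.2% lower and 18.7% higher). The members' median was -0.51, beside 0.01 over all 11315 genes. In sgRbpj cells BioNICD1 raised 38 members and lowered none, with 4.14% of all genes called (2.70% higher and 1.45% lower), and the members' median was 0.67, beside -0.01 over all genes. The difference of the 2 effects, tested as an interaction, was positive and passed for 47 of 53 members, with a median of 1.09, beside -0.03 over all genes. Of all genes 22.5% passed that test, 9.17% as higher and 13.3% as lower. The members not passing were Aurkb, Ccnb2, Cdc20, Cenpa, Cenpn and Spc24.

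Pttg1, the separase inhibitor, had the largest fall of the 53 members in control cells. It was at 15.0, 14.5 and 16.5 CPM with BioNICD1, against 42.4, 39.0 and 39.2 CPM with Biocontrol. That is 2.62-fold lower, -1.39 ± 0.09 (edgeR adjusted p = 1.98e-07), and the groups did not overlap. In sgRbpj cells it was at 21.3, 19.5 and 21.9 CPM with BioNICD1, against 17.01, 17.96 and 16.98 CPM with Biocontrol, a difference that did not pass (0.27, edgeR adjusted p = 0.13). Its interaction was 1.66 ± 0.13 (edgeR adjusted p = 3.02e-06).

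Of 8 spindle assembly genes, 5 fell in control cells and 7 rose in sgRbpj cells. Aspm was at 104, 82.7 and 90.8 CPM with BioNICD1 in control cells, against 203, 218 and 186 CPM with Biocontrol (-1.13 ± 0.16, edgeR adjusted p = 0.000138). In sgRbpj cells it was at 176, 145 and 113 CPM with BioNICD1, against 82.2, 73.8 and 96.2 CPM with Biocontrol. It fell in control cells and rose in sgRbpj cells (0.78), and its interaction was 1.91. Nusap1, a microtubule-bundling protein, fell by 0.94 in control cells and had an interaction of 1.61. Bub1b, the checkpoint protein BubR1, fell by 1.32 in control cells. Kif22, a chromosome-arm motor, fell by 0.65 in control cells and rose by 0.66 in sgRbpj cells. Nek2, a centrosome kinase, fell by 0.69 and rose by 0.58. Aurka, the spindle pole kinase, fell by 0.77 in control cells, and Cdca8, a passenger subunit, by 0.83. The cytokinesis genes Anln (1.43) and Racgap1 (1.03) and the kinesin Kif20a (1.17) were among the 8 members whose interaction had the lowest adjusted p. The largest interactions of the 53 were those of Hmmr (2.01), Cenpe (1.95) and Aspm.

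Aurkb was the 1 member that rose in both backgrounds. It was at 41.2, 39.5 and 40.6 CPM with BioNICD1 in control cells, against 27.1, 28.8 and 26.4 CPM with Biocontrol (0.56 ± 0.08, edgeR adjusted p = 0.000149). In sgRbpj cells it was at 61.6, 63.0 and 64.4 CPM with BioNICD1, against 38.9, 36.3 and 35.5 CPM with Biocontrol (0.77 ± 0.08, edgeR adjusted p = 0.000538). The groups did not overlap in either background, and the 2 effects differed by 0.21 (edgeR adjusted p = 0.164).

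In control cells Cdk1, Bub1, Kif14, Mki67 and Top2a did not pass, and in sgRbpj cells all 5 rose. Cdk1 was at 81.4, 65.9 and 70.7 CPM with BioNICD1, against 73.9, 69.5 and 72.6 CPM with Biocontrol, and the groups overlapped. In sgRbpj cells Cdk1 was at 130, 92.4 and 117 CPM with BioNICD1, against 61.1, 61.6 and 74.4 CPM with Biocontrol (0.79 ± 0.13, edgeR adjusted p = 0.00501). Bub1 was at 63.5, 52.9 and 62.1 CPM with BioNICD1 in control cells, against 67.2, 72.9 and 65.7 CPM with Biocontrol, which did not pass (-0.21, edgeR adjusted p = 0.204). In sgRbpj cells Bub1 was at 117, 87.0 and 100.4 CPM with BioNICD1, against 63.1, 54.3 and 64.8 CPM with Biocontrol, a rise of 0.74. Plk1 moved in opposite directions, at 57.9, 60.0 and 60.3 CPM with BioNICD1 in control cells, against 91.99, 86.2 and 83.5 CPM with Biocontrol. In sgRbpj cells Plk1 was at 80.2, 92.2 and 85.2 CPM with BioNICD1, against 65.4, 66.4 and 54.3 CPM with Biocontrol. Plk1 fell by 0.55 in control cells (edgeR adjusted p = 0.000632) and rose by 0.47 in sgRbpj cells (0.0147).

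Ccnb1 was at 12.0, 14.9 and 14.2 CPM with BioNICD1 in control cells, against 19.4, 24.8 and 24.1 CPM with Biocontrol. In sgRbpj cells it was at 21.8, 16.4 and 22.8 CPM with BioNICD1, against 13.8, 14.4 and 10.6 CPM with Biocontrol. Ccnb1 fell by 0.73 in control cells (edgeR adjusted p = 0.00438) and rose by 0.64 in sgRbpj cells (0.0493), with no overlap between groups in either background. Kif14 was at 69.0, 51.6 and 49.7 CPM with BioNICD1 in control cells, against 80.6, 78.2 and 67.8 CPM with Biocontrol, and those groups overlapped. In sgRbpj cells Kif14 was at 112, 84.7 and 76.0 CPM with BioNICD1, against 41.9, 37.1 and 52.5 CPM with Biocontrol, a rise of 1.05 with no overlap. Mki67 was at 1857, 1399 and 1519 CPM with BioNICD1 in control cells, against 1716, 1762 and 1610 CPM with Biocontrol. In sgRbpj cells Mki67 was at 3183, 2402 and 1806 CPM with BioNICD1, against 1135, 1051 and 1520 CPM with Biocontrol. Mki67 overlapped between groups in control cells and did not in sgRbpj cells (1.00, edgeR adjusted p = 0.0181). Top2a was at 1069, 823 and 869 CPM with BioNICD1 in control cells, against 1105, 1076 and 958 CPM with Biocontrol. In sgRbpj cells Top2a was at 2265, 1273 and 1276 CPM with BioNICD1, against 722, 620 and 1099 CPM with Biocontrol (0.98, edgeR adjusted p = 0.047).

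**Figure D3:**
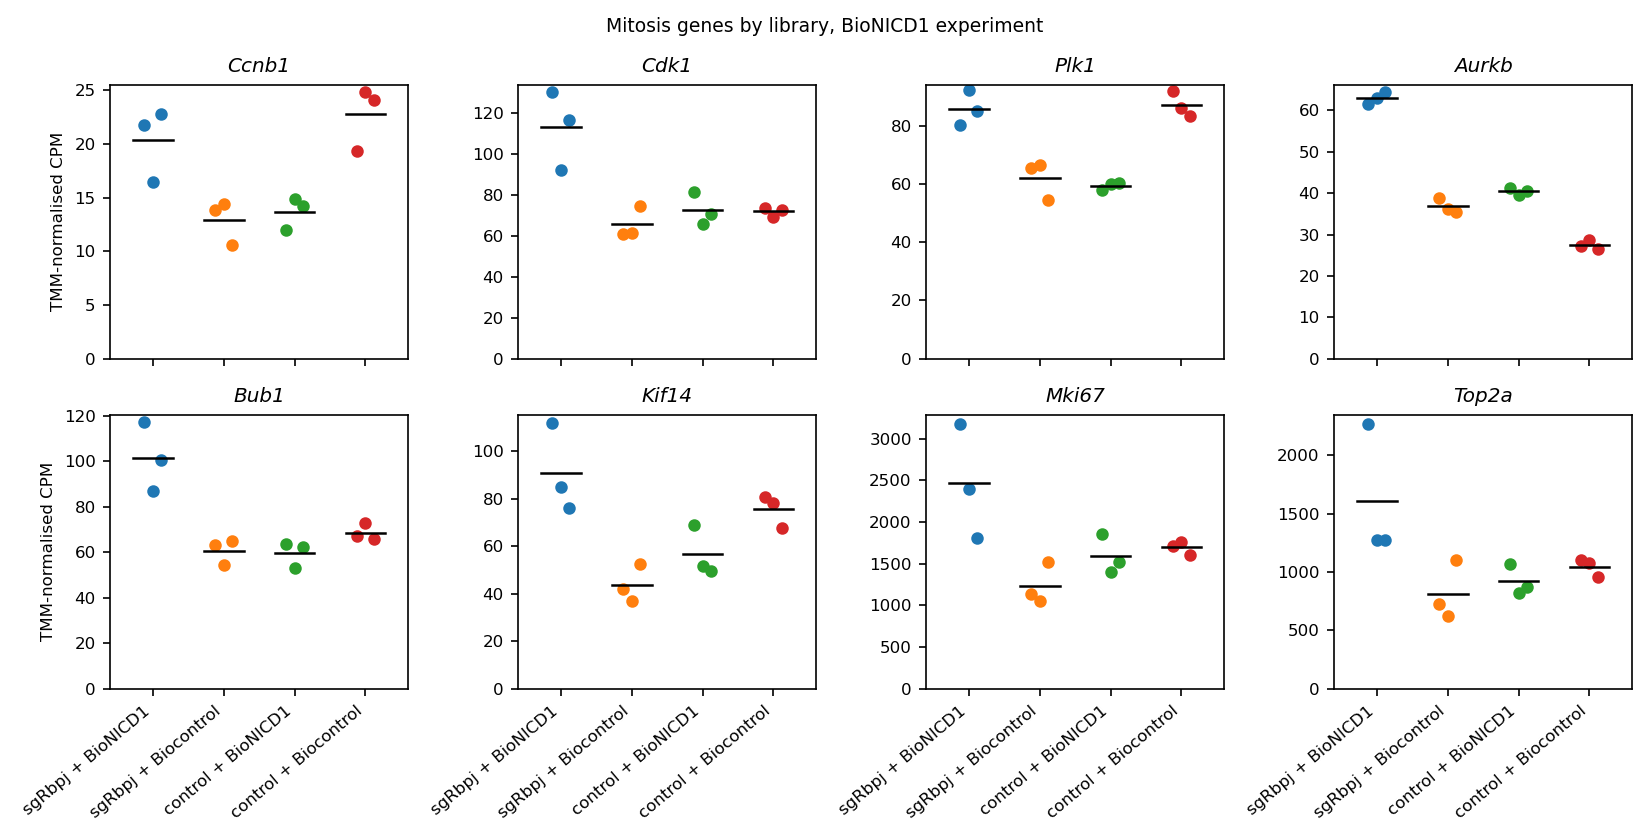
TMM-normalised CPM of 8 members in each library of the BioNICD1 experiment, with a line at the mean of each group (n = 3). With Biocontrol, sgRbpj cells lay below control cells in every library for Ccnb1, Plk1, Kif14, Bub1 and Mki67, and above them for Aurkb. Bub1 and Mki67 did not pass in that contrast. Cdk1 and Top2a overlapped between the groups and did not pass.

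**Figure D4:**
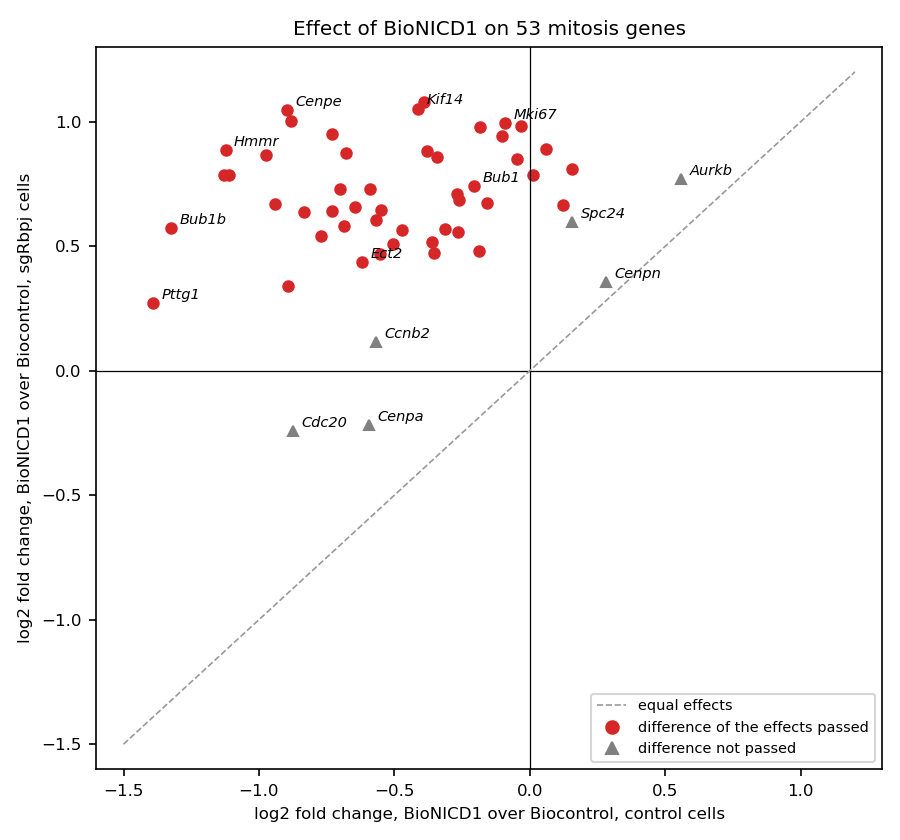
Each point is a member's log2 fold change of BioNICD1 over Biocontrol, in control cells on the horizontal axis and in sgRbpj cells on the vertical axis, and the dashed line marks equal effects. All 53 points lie above that line, as did 47.9% of all genes, and the difference passed for 47 (red).

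The 2 backgrounds share no libraries in these contrasts, and 20 of 53 members fell in control cells and rose in sgRbpj cells, as did 0.442% of all 11315 genes. DNA replication genes did otherwise. With BioNICD1 in control cells, 37 of 42 rose, with a median of 0.86. The lowest adjusted p-values were those of Cdc6 (1.64), Uhrf1 (1.54) and Mcm7 (1.19). In sgRbpj cells 27 of 42 rose, with a median of 0.53. Their interaction passed for 1 as higher and 18 as lower, with a median of -0.38. Mybl2 rose by 1.40 and E2f1 by 0.88 in control cells, while Cdkn1b fell by 0.81; Foxm1 changed by 0.24 (edgeR adjusted p = 0.0824). In sgRbpj cells Mybl2 rose by 0.57, E2f1 by 0.55 and Foxm1 by 0.46. Of other mitosis genes, 13 rose and 12 fell in control cells; Cdc25b (-1.78), Cdkn3 (-1.598) and Spag5 (-0.84) had the lowest adjusted p among the falls, and Cdc25a (0.91), Fbxo5 (0.94) and Cdca5 (1.00) among the rises. Of 15 APC/C subunits, 5 fell in control cells.

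Depletion itself was read in the same libraries, which these contrasts share with those above. With Biocontrol, sgRbpj cells had 35 members lower and 1 higher than control cells, with 42.0% of all genes called (21.7% higher and 20.3% lower) and a median of -0.63. The falls with the lowest adjusted p were those of Pttg1 (-1.21), Kif22 (-0.94), Racgap1 (-0.94), Nusap1 (-1.05), Kif4 (-0.98), Mad2l1 (-0.67), Aspm (-1.27) and Bub1b (-1.43), and Aurkb rose by 0.43. By size the largest falls were those of Bub1b and Tpx2 (-1.42). With BioNICD1, sgRbpj cells had 38 members higher and none lower, with 39.8% of all genes called (18.5% higher and 21.4% lower) and a median of 0.57. Nek2 (0.98), Aurkb (0.64), Anln (0.85), Aurka (0.86) and Cenpu (0.91) had the lowest adjusted p, and the largest rise was that of Cenpf (1.14). DNA replication genes were higher in sgRbpj cells in 27 of 42 with Biocontrol and in 13 of 42 with BioNICD1, where 3 were lower. The 6 myeloid markers, mostly Cd68, summed to 11.8, 14.9 and 9.84 CPM in sgRbpj + Biocontrol, against 29.8, 33.5 and 32.3 CPM in control + Biocontrol. They summed to 8.60, 10.7 and 12.6 CPM in sgRbpj + BioNICD1, against 28.3, 28.9 and 28.96 CPM in control + BioNICD1. The groups did not overlap in either contrast, and the markers' part in the result was not tested.

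In this experiment 2 libraries stood apart from their groups, sgRbpj + BioNICD1 replicate 1 (normalisation factor 0.831, against 1.02 and 1.04) and sgRbpj + Biocontrol replicate 3. Without both, members passed in number as 1 higher and 37 lower for BioNICD1 in control cells, and as 45 higher in sgRbpj cells. The interaction then passed for 49; this fit was chosen after seeing the data. Without sgRbpj + Biocontrol replicate 1, or without replicate 2, 19 rather than 38 members rose with BioNICD1 in sgRbpj cells. Scaling by library totals moved the median of all genes to -0.12 for BioNICD1 in sgRbpj cells (30 members higher) and to 0.12 for sgRbpj with Biocontrol (32 lower). It moved the median of all genes in the interaction to -0.22, and the members' median to 0.89, with 42 passing. Cd22 led the B cell markers at 183 to 229 CPM with BioNICD1 in control cells, against at most 0.493 CPM with Biocontrol, and no other B cell marker passed 1 CPM; its part in the result was not tested.

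Cells with NICD1-ER showed small rises of some members with 4-OHT. No group given 4-OHT without NICD1-ER was among the samples, so the part of 4-OHT itself was not tested. After 4 h of 4-OHT 11 members were higher than in ethanol and none lower, with 6.25% of all genes called (3.16% higher and 3.09% lower), and the members' median was 0.14. After 8 h 13 were higher and none lower, with 10.4% of all genes called (5.06% higher and 5.31% lower) and a median of 0.12. After 24 h 3 were higher and none lower, with 10.8% of all genes called (6.59% higher and 4.22% lower) and a median of 0.10. The 3 contrasts share the 2 ethanol libraries, in which members stood low (medians of -0.07 and -0.10), and at 4 and 8 h the ethanol lasted longer than the 4-OHT.

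Cenpa, the centromeric histone, was at 84.1 and 71.7 CPM in ethanol, at 104 and 97.5 CPM after 4 h, at 106 and 97.0 CPM after 8 h and at 93.1 and 90.6 CPM after 24 h. It rose by 0.39 ± 0.07 at 4 h (edgeR adjusted p = 0.00307) and by 0.41 at 8 h (0.00141). Ccnb2, a mitotic cyclin, was at 113 and 107 CPM in ethanol, against 134 and 128 CPM after 4 h and 134 and 130 CPM after 8 h (0.26 and 0.27). Nek2 rose by 0.23 and 0.26, Cdc20, the APC/C activator, by 0.26 and 0.26, and Kif2c by 0.24 and 0.20 at 4 and 8 h. Aspm rose by 0.28 and Espl1 by 0.19 at 4 h. Racgap1 rose by 0.18 at 8 h.

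Kif14 passed at all 3 times. It was at 149 and 168 CPM in ethanol, 184 and 202 CPM after 4 h, 189 and 193 CPM after 8 h and 194 and 194 CPM after 24 h, with rises of 0.26, 0.26 and 0.29. At 24 h Cenpe rose by 0.22 and Kif22 by 0.18. Cdk1 was at 131 and 122 CPM in ethanol, 126 and 127 after 4 h, 128 and 121 after 8 h and 124 and 122 CPM after 24 h, and the groups overlapped. Aurkb lay between 127 and 143 CPM and Bub1 between 185 and 210 CPM in all 8 samples of that experiment. Ccnb1 lay between 89.7 and 110 CPM and Plk1 between 113 and 136 CPM. Mki67 lay between 1078 and 1238 CPM and Top2a between 590.8 and 640.4 CPM.

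After 24 h against 4 h of 4-OHT, Cdc20 was lower by 0.20 (edgeR adjusted p = 0.0323) and Spc25, a kinetochore subunit, higher by 0.20 (0.04), with 13.4% of all genes called (8.00% higher and 5.41% lower). No member was higher there with library totals, without the low-count filter or with the block, and 1 to 3 members passed when 1 sample was left out: 1 without either 24 h sample and 3 without replicates 1 and 2 of 4 h. Cdkn1b fell by 0.26 at 4 h and by 0.31 at 8 h and differed by 0.07 at 24 h (edgeR adjusted p = 0.692). Mybl2 rose by 0.21 and Foxm1 by 0.20 at 8 h, and Foxm1 rose by 0.26 at 24 h, while E2f1 did not pass. Of other mitosis genes 9, 17 and 12 rose at 4, 8 and 24 h, Iqgap3 (0.38 at 4 h) among them, and 7 of 42 replication genes rose at 8 h, Orc1 (0.37) with the lowest adjusted p. With DESeq2 2, 1 and 1 members passed at 4, 8 and 24 h. Leaving out 1 sample gave 5 to 10, 3 to 17 and 0 to 6 members, and the samples that moved the count by over 1.5 times were as follows. At 4 h 5 passed without either ethanol library and 7 without replicates 1 and 2 of 4 h. At 8 h 3 passed without replicates 1 and 2 of 8 h, 7 without replicate 3 of 8 h, 8 without ethanol replicate 2, 5 without ethanol replicate 3 and 6 without 24 h replicate 2. At 24 h 0 passed without 24 h replicate 2, 1 without 24 h replicate 3 and 6 without either 4 h sample. B cell markers, nearly all Cd22, summed to 37.5 and 44.2 CPM in ethanol, 92.1 to 97.1 CPM after 4 h, 148 to 163 CPM after 8 h and 271 and 275 CPM after 24 h. Myeloid markers summed to 45.5 and 41.5 CPM in ethanol, 29.6 to 31.8 CPM after 4 h, 28.99 to 33.7 CPM after 8 h and 42.9 and 43.2 CPM after 24 h. The part of either list in the result was not tested.

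**Figure D5:**
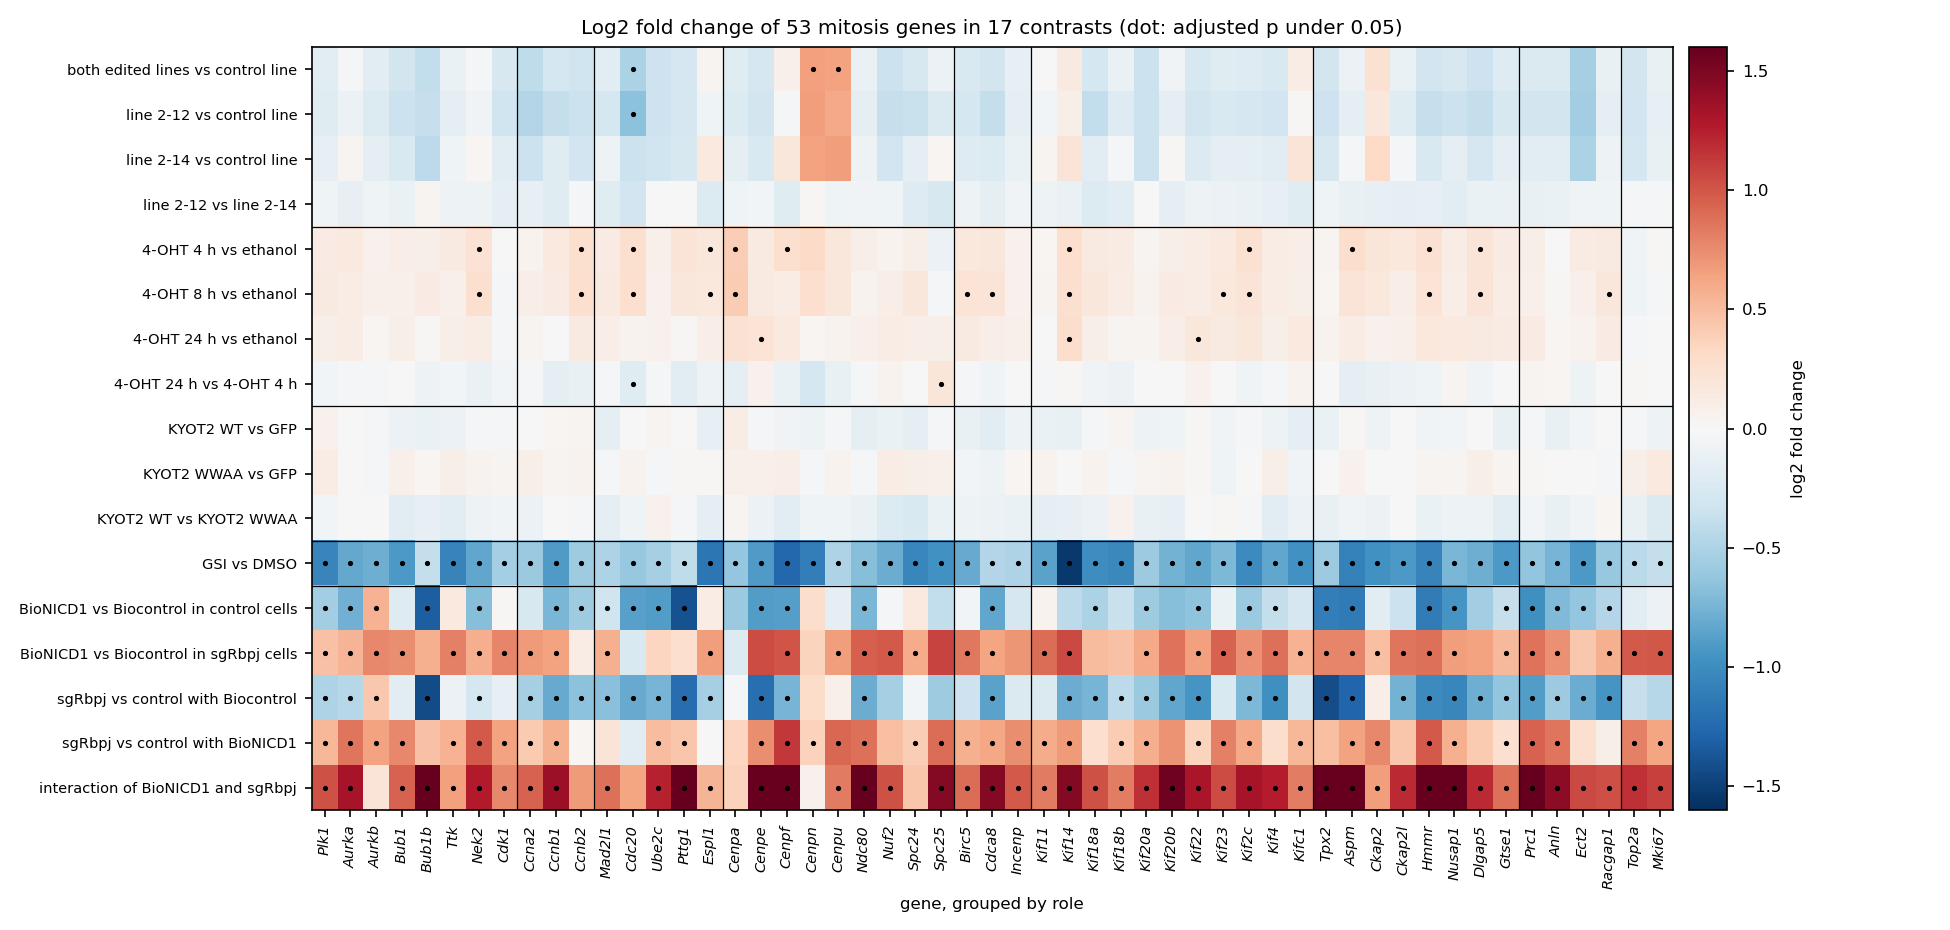
Colour gives each member's log2 fold change in each of 17 contrasts, with the group named first over the other, genes ordered by role, and a dot where the adjusted p was under 0.05. The GSI row is blue for all 53 members, the interaction row is red, and the KYOT2 rows hold no dot.

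In the edited lines 3 of 53 mitosis genes passed without pairing by replicate, and 15 passed with the replicate as a block. The fold changes, SE and adjusted p that follow are from the fit without pairing, so their spread includes the differences between replicate numbers. Of the fit with the block, only counts of members and the share of all genes called are given below. With both lines against the control line, Cenpu and Cenpn, centromere proteins that sit on CENP-A chromatin, were higher and Cdc20 was lower, with 9.89% of all genes called (6.21% higher and 3.68% lower). Cenpn was at 41.5 and 51.4 CPM in line 2-12 and at 45.9 and 45.9 CPM in line 2-14, against 27.4 and 30.8 CPM in the control line (0.66 ± 0.15, edgeR adjusted p = 0.0424). Cenpu was at 48.3 and 58.2 CPM in line 2-12 and 54.4 and 57.0 CPM in line 2-14, against 33.2 and 36.4 CPM in the control line (0.64 ± 0.14, edgeR adjusted p = 0.037). Cdc20 was at 88.8 and 98.2 CPM in line 2-12 and 116 and 116 CPM in line 2-14, against 156 and 140.3 CPM in the control line (-0.50 ± 0.10, edgeR adjusted p = 0.0287). For Cenpn and Cenpu all 4 edited libraries lay above both control libraries, and for Cdc20 all 4 lay below.

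The members' median was -0.21, beside -0.00 over all 11566 genes, and 45 of 53 lay below 0, as did 50.5% of all genes. Top2a was at 577 and 572 CPM in line 2-12 and 600.4 and 577 CPM in line 2-14, against 813 and 615 CPM in the control line. Cdk1 was at 116 and 115 CPM in line 2-12 and 130 and 126 CPM in line 2-14, against 161 and 130 CPM in the control line. Ccnb1 was at 110 and 102 CPM in line 2-12 and 116 and 126 CPM in line 2-14, against 160 and 118 CPM in the control line. Control line replicate 1, the shallowest library, was the high one in each. Plk1 lay between 138 and 151 CPM in both edited lines, against 175 and 144 CPM, and Aurkb between 143 and 161 CPM, against 188 and 157 CPM. Bub1 lay between 196 and 234 CPM in both edited lines, against 293 and 233 CPM. Kif14 lay between 191 and 224 CPM, against 211 and 168 CPM, and Mki67 between 1128 and 1276 CPM, against 1470 and 1147 CPM in the control line.

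The replicate numbers paired the samples in that experiment, and a fit with the replicate as a block called 2 members higher and 13 lower, with 36.8% of all genes called. Without control line replicate 1 no member passed and the median was -0.06, and without control line replicate 2 25 passed. No member passed without any 1 of the edited line libraries. Line 2-12 alone had Cdc20 lower (-0.66), with 6.96% of all genes called (4.83% higher and 2.13% lower), or 11 members with the block; 24 passed without control line replicate 2 and none without any other 1 library. Line 2-14 alone had no member passing in edgeR with 5.05% of all genes called (3.40% higher and 1.65% lower), 6 at an unadjusted p under 0.05, 0 in DESeq2, 5 with the block and 8 without control line replicate 2. Lines 2-12 and 2-14 had no member passing in edgeR, with 1 at an unadjusted p under 0.05, 0 in DESeq2 and 0.484% of all genes called (0.303% higher and 0.182% lower). In the fit without the block Foxm1, Mybl2, E2f1, Cdkn1a and Cdkn1b did not pass in the edited lines. Of 42 replication genes none passed in that fit, with a median of -0.01. Calls of these genes with the block are not given here. Cd22 was at 4.67 to 8.21 CPM in the edited lines, against 0.841 and 1.25 CPM in the control line; its part in the result was not tested.

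No mitosis gene passed in the KYOT2 experiment in the main edgeR fit or in DESeq2. With the replicate as a block, 1 member passed for WT against GFP and 8 for WT against WWAA. Same-number correlations there were 0.0349 to 0.408, and not every pair reached the 0.1 set for pairing. With GFP-KYOT2 WT against GFP no member passed in edgeR or DESeq2, with 0.888% of all genes called (0.807% higher and 0.0807% lower); 9 had an unadjusted p under 0.05, all lower, and the median was -0.05. With GFP-KYOT2 WWAA against GFP no member passed in either tool, with 0.0897% of all genes called (0.0717% higher and 0.0179% lower), 1 at an unadjusted p under 0.05 and a median of 0.04. With WT against WWAA no member passed in either tool, with 1.87% of all genes called (1.26% higher and 0.601% lower), 13 at an unadjusted p under 0.05, all lower, and a median of -0.09. The 95% confidence intervals of the 53 members in that contrast all lay between -0.43 and 0.20 on the log2 scale.

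Bub1 was at 214, 209 and 226 CPM with WT and 230, 234 and 267 CPM with WWAA, against 227, 226 and 236 CPM with GFP. Mki67 was at 1092, 1094 and 1200 CPM with WT and 1181, 1187 and 1603 CPM with WWAA, against 1232, 1122 and 1216 CPM with GFP. Top2a was at 1402, 1412 and 1537 CPM with WT and 1455, 1488 and 1767 CPM with WWAA, against 1427, 1429 and 1575 CPM with GFP. WWAA replicate 3 was the high library in all 3. Kif14 was at 83.2, 83.5 and 89.0 CPM with WT and 90.3, 88.5 and 101 CPM with WWAA, against 88.9, 90.6 and 98.0 CPM with GFP. Cdk1 lay between 234 and 252 CPM over all 9 libraries, Plk1 between 107 and 126 CPM, Aurkb between 128 and 137 CPM and Ccnb1 between 115 and 139 CPM. Among replication genes 16 of 42 were lower with WT than with WWAA, and the lowest adjusted p-values were those of Cdc6 (-0.38), Mcm6 (-0.33) and Mcm3 (-0.35), and Cdkn1a was higher by 0.34 (edgeR adjusted p = 0.00263).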

How the data were processed

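RNA-seq counts of 5 experiments in 1 T cell line were used. The deposited table holds raw whole-number read counts per gene symbol. Per the submitters' processing notes, TopHat2 2.1.1, Picard, deepTools and the build mm9 were used, with no roles given; the counting tool is not given in the sources used here. Of 65 columns, 41 were matched to labelled samples and 24 were not used; 2 of those share 1 heading. The deposited region lists (start and end positions) were not used, since they are in mm9 and no mm9 annotation was used here.

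The 5 experiments had separate fits with edgeR 4.0.16 (R 4.3.3), using filterByExpr, TMM normalisation, a group-means design and two-sided quasi-likelihood tests, adjusted by Benjamini-Hochberg over all genes tested, with a threshold of 0.05 and a prior count of 0.125. SE is the log2 fold change over the square root of F. For the 2 edited lines together, their averaged coefficient was set against the control line, and the interaction is the effect of BioNICD1 in sgRbpj cells minus that in control cells. NICD1-ER replicates 1 and 2 at 4 h (chi-square per gene 0.907) and at 8 h (0.835) differed by less than sampling noise and were summed as 1 sample each; the design had planned to use each library singly, which is kept as an alternative.

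Pairing by replicate number was checked by residual correlations: in the edited lines same-number r was 0.433 to 0.608, while each other experiment had a same-number pair under 0.1. The numbers come from the labels. Alternatives were RLE factors, library totals, DESeq2 1.42.0, no filter, the block, and leaving out each sample; a fit without 2 sgRbpj libraries was chosen after seeing the data. The test was tried on simulated data. Of 70 other mitosis genes 68 were measured. The members and lists were chosen with earlier results of these data known. Named genes were 8 fixed members in every sample, at most 8 passing members per direction in each contrast by adjusted p, at most 3 genes per direction of each outside list, and Foxm1, Mybl2, E2f1, Cdkn1a, Cdkn1b and Rbpj; single members beyond these were chosen after their values were seen.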

Additional observations from a re-analysis of the deposited data

Results flagged for a closer look

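The effect of BioNICD1 differed between sgRbpj and control cells for 47 of 53 mitosis genes, tested as an interaction in edgeR. Those with the lowest adjusted p were Pttg1 (a log2 difference of 1.66), Kif22 (1.302), Nek2 (1.27), Nusap1 (1.61), Kif20a (1.17), Anln (1.43), Aspm (1.91) and Racgap1 (1.03). Between 24 h and 4 h of 4-OHT the difference itself passed for Cdc20 (-0.20) and Spc25 (0.20). Groups of 2 or 3 samples were not tested for outlying samples.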

How the results depend on the processing

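In the GSI contrast 51 to 53 members passed under every alternative run. For both edited lines, line 2-12 and line 2-14 against the control line, the counts of 3, 1 and 0 became 7, 5 and 4 with no low-count filter and 15, 11 and 5 with the replicate block, and ranged from 0 to 25, 0 to 24 and 0 to 8 when 1 library was left out. For 4-OHT at 4, 8 and 24 h and for 24 h against 4 h, the counts of 11, 13, 3 and 2 became 2, 1, 1 and 0 in DESeq2 and ranged from 5 to 10, 3 to 17, 0 to 6 and 1 to 3 when 1 sample was left out. At 24 h the count became 5 with no filter, 8 with the block and 6 with each library as its own sample, and for 24 h against 4 h it became 1 with the block. For KYOT2 WT against GFP 1 member passed with the block; for WT against WWAA 3 passed with no filter and 8 with the block. There the same-number correlations were 0.0349 to 0.408 and 8 of 9 libraries correlated best with their own number. For BioNICD1 in sgRbpj cells 19 to 44 members passed when 1 library was left out. The replicate block moved no other count by over 1.5 times. The cause of these changes was not tested. Passing members, at most 8 per direction in each contrast by adjusted p, gave 75 results, which were compared with alternatives 1166 times. Of these comparisons 1068 kept the call, 98 lost it and 0 changed direction. Results that had not passed in the main fit were not compared, so gained calls are not counted there. The shallowest library, in the edited-line experiment, held 2377028 counts; what depth limits there was not tested.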

Other observations

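CDK inhibitors and p53 target genes formed a list of which 16 genes were measured. In the NICD1-ER experiment 6 of 16 fell and none rose after 4 h of 4-OHT, with 3.09% of all genes called lower, and 6 fell and none rose after 8 h, with 5.31% called lower. Ethanol was given for 24 h. Btg2, an antiproliferative gene, fell by 0.53 at 4 h and by 0.93 at 8 h. Bbc3, which promotes cell death, fell by 0.69 and by 1.14, and Trp53inp1 by 0.35 and by 0.73. After 24 h 1 rose and 2 fell, with 6.59% of all genes called higher and 4.22% lower: Gadd45a rose by 0.56, and Sesn1 fell by 0.29 and Btg2 by 0.23. Set against 4 h, 8 of 16 were higher at 24 h and none lower, with 8.00% of all genes called higher; among them were Cdkn1a (0.49), Cdkn2d (0.34) and Cdkn1b (0.33). With GSI 3 of the 16 rose and 3 fell, with 9.16% of all genes called higher and 11.6% lower.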
